A study of Mus musculus with 6 samples.

Results

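The genes described here encode proteins of the mitochondrial ribosome, measured in mouse liver. They were chosen by name: every gene whose symbol on the array begins with Mrpl or Mrps and a digit, pseudogenes left out, with the probe set of the highest mean kept for each gene. The rule found 74 genes among the 30718 genes that the array's annotation names singly, 46 of them Mrpl genes (large subunit by name) and 28 Mrps genes (small subunit by name). Each was measured by 1 probe set, so no choice between probe sets arose. Probe sets listed for Mrpl30, Mrpl53 and Mrps6 also carry another gene's name and were left out, as were a further probe set of Mrps18b and 4 pseudogenes.

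The study asked how inulin, a fermentable plant fibre, given to the mother bears on the liver of male offspring. Liver RNA of 6 male mice aged 8 weeks was hybridised to 1 Affymetrix array each. In the group titled HFD-inulin (3 mice) the mothers had received inulin, and in the group titled HFD (3 mice) the mothers had been on a high-fat diet (HFD). The title HFD-inulin names HFD as well, so the groups need not differ in the mothers' fat intake. The labels give no strain, no diet of the offspring themselves and no litter or mother for any mouse. The p-values therefore measure only the spread between these samples, which may be technical or common to a litter. Values are log2 signals, and a difference is HFD-inulin minus HFD on that log2 scale. In whole liver, fewer cells of a type and less RNA per cell cannot be told apart.

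Mitochondria keep their own ribosomes, which translate the few messages of the mitochondrial genome into core membrane subunits of the respiratory chain and the ATP synthase. Their ribosomal RNAs are transcribed in the organelle, whereas every protein of these ribosomes is encoded in the nucleus, made in the cytosol and imported. Some of the proteins have bacterial counterparts and others are found only in mitochondria, and liver is rich in both mitochondria and respiration. NRF1, ETS-family factors such as GABPA, and YY1 are transcription factors known for acting at promoters of nuclear genes for mitochondrial proteins.

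Letters matching the usual motifs of these factors stood in the promoters of many of the genes. RefSeq promoter windows (GRCm38.p6, 250 bases before to 50 after the start, 300 in all) were at hand for 65 of the 74 genes, and these windows were searched on both strands. The motifs and the stretches printed were chosen after the array values had been seen. The NRF1 letters, GCGCA followed by any base and GCGC, were in 12 windows (18.5%), against 4.78% of all 27025 promoters and 6.60% of 17492 protein-coding ones. The ETS letters CCGGAAG were in 23 (35.4%), against 9.12% of all and 11.9% of protein-coding promoters. The YY1 letters AAGATGGCG were in 8 (12.3%), against 1.49% and 1.94%. In 6 of those 8 the YY1 letters lay downstream of the start, at positions 12 to 37, on the gene's own strand. At least 1 of these 3 motifs was present in 37 windows, 56.9% against 18.6% of protein-coding promoters.

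Base composition was close to that of other genes, with a median GC content of 58.0% against 56.3% in protein-coding promoters. Among the 6381 protein-coding promoters with a GC content between the members' quartiles (53.0% to 64.3%), the NRF1, ETS and YY1 letters were in 8.65%, 16.9% and 2.85%. The GC box GGGCGG (50.8% against 46.3% of protein-coding promoters), the CCAAT box CCAAT (40.0% against 39.0%) and the E-box CACGTG (7.69% against 7.90%) were about as frequent as elsewhere. The TATA letters TATAAA were in 6.15%, against 13.3% of protein-coding promoters and 7.24% of those in the same GC range. A match of letters is a description and does not show that a factor binds there, and windows of neighbouring genes that share a start region overlap.

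**Figure D1:**
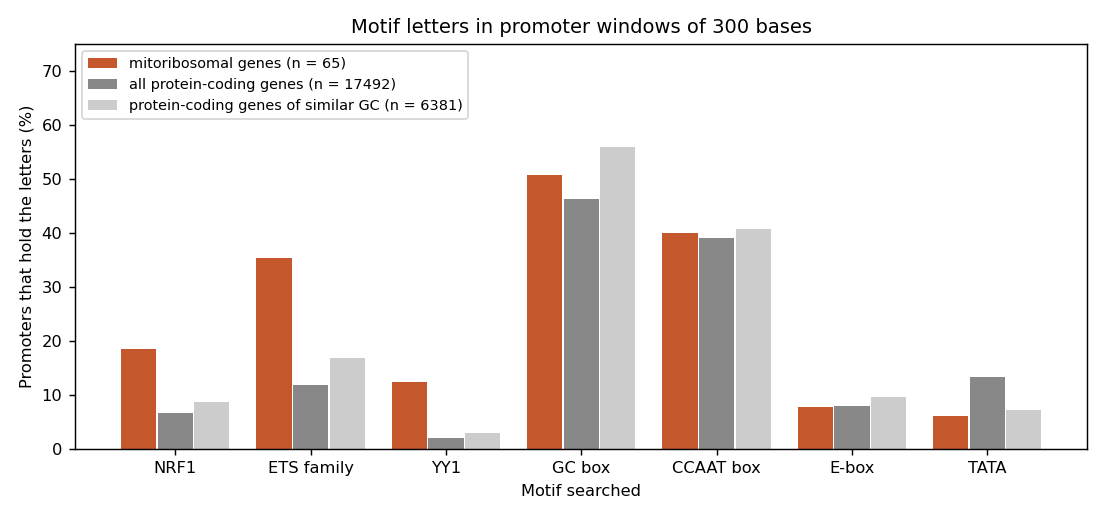
Share of promoter windows of 300 bases (y axis, percent, from 0) that hold each motif's letters on either strand (x axis), in 65 mitoribosomal genes, in all 17492 protein-coding genes and in 6381 protein-coding genes of similar GC content. The bars for the NRF1, ETS and YY1 letters stand higher in the mitoribosomal genes (18.5%, 35.4% and 12.3%), whereas those of the GC box, CCAAT box and E-box stand near the other bars.

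The stretch of 130 bases before the start held NRF1 or ETS letters in 21 of the genes, and in 9 of these no other RefSeq gene lies over it. The 6 of those 9 with the smallest p in the array comparison are printed to show how the letters sit before the start, which follows the last base. Each is written 5′ to 3′ on the gene's strand, with the motif letters in capitals. Mrps22 (chr9:98601680-98601809, minus strand), Mrpl52 (chr14:54426779-54426908, plus strand) and Mrpl34 (chr8:71464796-71464925, plus strand) hold ETS letters, those of Mrpl52 on the opposite strand. Mrpl17 (chr7:105811088-105811217, minus strand), Mrpl32 (chr13:14613038-14613167, minus strand) and Mrpl12 (chr11:120484507-120484636, plus strand) hold NRF1 letters, those of Mrpl12 on the opposite strand and those of Mrpl32 on both.
Mrps22: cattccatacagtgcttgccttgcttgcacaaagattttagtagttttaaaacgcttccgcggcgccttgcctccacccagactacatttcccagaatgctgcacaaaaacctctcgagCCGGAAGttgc
Mrpl17: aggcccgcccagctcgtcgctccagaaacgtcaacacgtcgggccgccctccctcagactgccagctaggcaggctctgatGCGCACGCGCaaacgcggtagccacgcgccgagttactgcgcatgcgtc
Mrpl52: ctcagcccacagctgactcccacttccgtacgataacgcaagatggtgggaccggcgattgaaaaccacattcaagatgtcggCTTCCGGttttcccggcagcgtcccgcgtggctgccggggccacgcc
Mrpl34: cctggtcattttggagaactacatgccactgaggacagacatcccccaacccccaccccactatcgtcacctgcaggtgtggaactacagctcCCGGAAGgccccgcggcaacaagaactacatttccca
Mrpl32: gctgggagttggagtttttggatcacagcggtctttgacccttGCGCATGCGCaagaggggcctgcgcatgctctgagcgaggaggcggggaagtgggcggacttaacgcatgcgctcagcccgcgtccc
Mrpl12: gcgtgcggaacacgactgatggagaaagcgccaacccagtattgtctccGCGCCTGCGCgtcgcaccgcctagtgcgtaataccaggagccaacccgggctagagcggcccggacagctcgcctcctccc

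In the array comparison, genes with ETS or YY1 letters had a larger median difference than genes without them, and genes with NRF1 letters a smaller one. The median difference was 0.11 in the 12 genes with NRF1 letters and 0.19 in the 53 without, 0.26 in the 23 with ETS letters and 0.13 in the 42 without, and 0.25 in the 8 with YY1 letters and 0.14 in the 57 without. The counts under an unadjusted p of 0.05 did not follow all of these medians: 2 of 12 genes with NRF1 letters and 12 of 53 without, 7 of 23 with ETS letters and 7 of 42 without, and 1 of 8 with YY1 letters and 13 of 57 without. Of all named genes, 3.42% were under 0.05 with the higher mean. These medians are descriptions and their differences were not tested.

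The arrays fell into parts that cross the groups. Probe sets numbered on chromosome Y that share their values exactly with another probe set had mean log2 signals of 1.91, 1.60 and 3.15 in the HFD-inulin arrays, in the order of their numbers, and of 1.34, 3.24 and 2.99 in the HFD arrays. HFD-inulin arrays 1 and 2 and HFD array 1 are therefore called the low arrays and the other 3 the high arrays, and no mitoribosomal probe set is among those used. The 6 arrays correlated at 0.982 to 0.995 (Pearson) and their medians lay between 1.17 and 1.26. All 7 hepatocyte markers (Alb, Apoa1, Apob, Ttr, Fgb, Tat and Cps1) were bright, with mean log2 signals of 9.82 to 11.5, as the label liver implies. Over all 65956 probe sets, limma with Benjamini-Hochberg adjustment called 0 at an adjusted p of 0.05, and 5.15% had an unadjusted p under 0.05.

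Most mitoribosomal genes had a slightly higher mean signal in HFD-inulin than in HFD livers. The mean was higher in 68 of 74 genes (91.9%) and lower in 6, whereas 43.5% of all probe sets and 46.9% of named genes had the higher mean in HFD-inulin. The differences were small, from -0.10 to 0.57 with a median of 0.16, beside medians of -0.02 over all probe sets and -0.01 over named genes. A fold of at least 1.2 was measured in 22 genes and a fold of at least 1.5 in 0, counts not made over all probe sets. No gene passed the test: limma's Benjamini-Hochberg adjusted p was 0.902 at the smallest, against a background of 0.0% of probe sets called.

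By the unadjusted limma p, 19 genes (25.7%) were under 0.05, all with the higher mean in HFD-inulin, against 2.52% of all probe sets in that direction, 4.04% of probe sets at or above the median signal and 3.42% of named genes. No gene was under 0.05 with the lower mean, against 2.64% of all probe sets. In 19 genes all 3 HFD-inulin arrays lay above all 3 HFD arrays, against 4.32% of all probe sets 5.66% of those at or above the median signal and 5.41% of named genes, and in 0 genes did they all lie below, against 6.02%. The counts meet in 14 genes. The 5 under 0.05 whose groups overlapped were Mrpl17, Mrpl54, Mrps7, Mrps18b and Mrps28, and the 5 whose groups stood apart at a larger p were Mrpl19, Mrpl27, Mrpl39, Mrpl48 and Mrps18c. These genes are named because their counts are small, after their values were seen.

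HFD-inulin arrays 1 and 2 carried most of the difference and array 3 lay near the HFD arrays. Averaged over the 74 genes, HFD-inulin arrays 1, 2 and 3 deviated from the HFD mean by 0.28, 0.24 and 0.04. For the HFD arrays themselves the same average was 0.06, -0.05 and -0.01. HFD array 1 was thus above HFD-inulin array 3. In HFD-inulin array 1, 70 of 74 genes lay above their HFD mean, in array 2 61 and in array 3 48. Of the 30718 named genes, 14258, 13853 and 15368 did. Arrays 1 and 2 both exceeded all HFD arrays in 50 genes, beside 4820 of the named genes. Array 3 was at or under the highest HFD array in 50, as it was in 23373 named genes, so this position was common on the whole array. The lowest HFD-inulin value was that of array 3 in 55 genes, among them 17 of the 19 with p under 0.05, and in 9855 named genes. Within HFD, array 1 was the highest in 52 genes and array 2 the lowest in 45, beside 13466 and 11850 named genes.

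**Figure D2:**
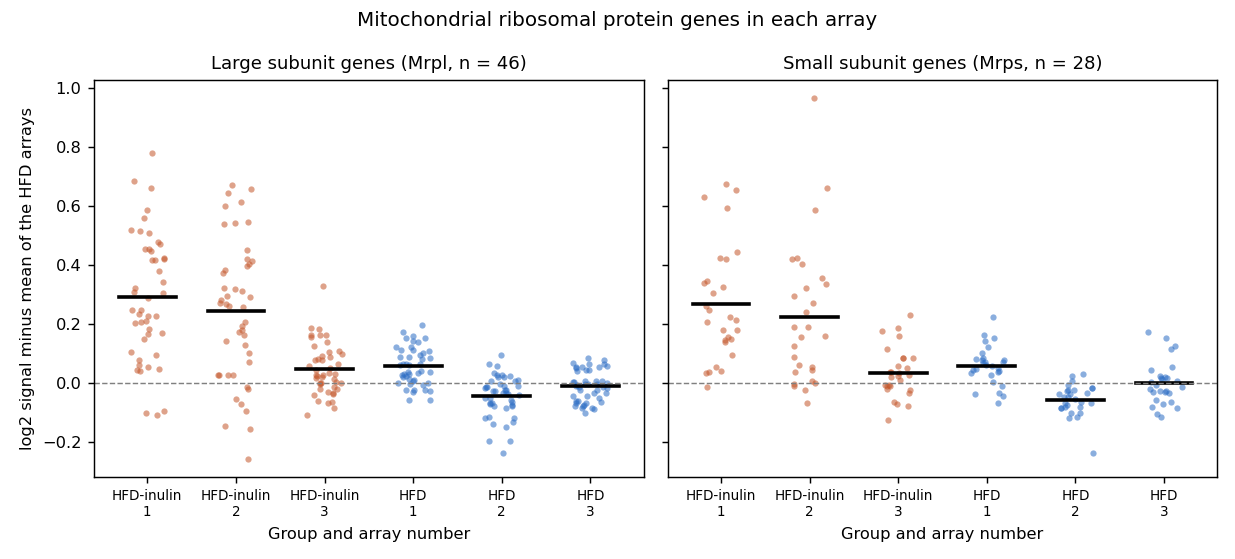
Each point is 1 gene's log2 signal minus its mean over the 3 HFD arrays (y axis), for each of the 6 arrays (x axis), with 46 Mrpl genes on the left and 28 Mrps genes on the right. The black bar is the mean over the genes, which for HFD-inulin is 0.29, 0.24 and 0.05 by array number for Mrpl genes and 0.27, 0.22 and 0.03 for Mrps genes, while the HFD arrays lie between -0.06 and 0.06.

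The genes also scattered more within HFD-inulin than within HFD, with a median SD of 0.151 against 0.0725. Over all probe sets these medians were 0.110 and 0.0949. The count of genes under an unadjusted p of 0.05 depended on which array was left out. It was 36 without HFD-inulin array 3 (9.89% of all probe sets under 0.05 either way), with a smallest Benjamini-Hochberg adjusted limma p of 0.0787 among the genes, and 18 of these 36 were under 0.05 with all arrays too. It was 7 without HFD-inulin array 1 (3.98%) and 8 without array 2 (3.92%). It was 12, 6 and 10 without HFD arrays 1, 2 and 3 (6.12%, 3.18% and 3.36%). The median difference stayed between 0.13 and 0.23 over these 6 fits.

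Within the parts of the arrays the differences were of unequal size. The median difference was 0.15 in the low arrays (2 HFD-inulin against 1 HFD) and 0.06 in the high arrays (1 against 2). Over all named genes these medians were -0.016 and 0.0041. In both parts 52 of 74 genes had the higher mean in HFD-inulin, a count not made over all named genes. With the parts as a block in limma, the median was 0.11 and 13 genes were under 0.05, when 5.19% of all probe sets were. Each part has 1 array in one of its groups, so its differences are given as values without a test. HFD-inulin array 3 is the only HFD-inulin array in the high part, so that array and the part cannot be told apart there.

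The 8 genes with the smallest p all had the higher mean in HFD-inulin, and in each the groups stood apart. Mrpl43, a mitochondria-specific protein of the large subunit, measured 4.91, 4.68 and 4.46 in HFD-inulin and 4.33, 4.01 and 4.06 in HFD, here and throughout in the order of the array numbers. Every HFD-inulin array lay above every HFD array, with the nearest being HFD-inulin array 3 and HFD array 1. The difference was 0.55 (SE 0.14, limma adjusted p = 0.902), and it was nearly as large in the high arrays (0.43) as in the low arrays (0.47).

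Mrps22, a mitochondria-specific protein of the small subunit and a known gene of inherited mitochondrial disease, measured 4.22, 4.21 and 3.81 in HFD-inulin and 3.67, 3.56 and 3.65 in HFD. Array 3 again lay between its group and the HFD arrays. The difference was 0.46 (SE 0.12, adjusted p = 0.902), with 0.54 in the low and 0.21 in the high arrays. Mrpl22 lines the tunnel through which the new chain leaves the ribosome. It measured 4.39, 4.51 and 4.03 in HFD-inulin and 3.93, 3.75 and 3.92 in HFD, a difference of 0.44 (SE 0.13).

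Mrpl21, with a bacterial counterpart, measured 4.55, 4.62 and 4.26 in HFD-inulin and 4.07, 4.17 and 3.99 in HFD. Mrpl35, also of bacterial type, measured 3.62, 3.61 and 3.36 against 3.17, 3.23 and 3.19. In both, arrays 1 and 2 were close together and array 3 was lower but above every HFD array, with differences of 0.40 (SE 0.11) and 0.33 (SE 0.09). Mrpl15 measured 4.89, 4.89 and 4.67 in HFD-inulin and 4.67, 4.38 and 4.48 in HFD, so that HFD-inulin array 3 and HFD array 1 nearly met. Its difference was 0.31 (SE 0.10), with 0.22 in the low and 0.24 in the high arrays.

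Mrpl45 holds the ribosome to the inner mitochondrial membrane. It measured 4.49, 4.22 and 4.23 in HFD-inulin and 4.07, 4.001 and 4.04 in HFD, and here array 1 alone stood high while arrays 2 and 3 were alike. Its difference was 0.27 (SE 0.09). Mrpl50, a mitochondria-specific protein, measured 5.75, 5.78 and 5.64 against 5.47, 5.53 and 5.51, with little spread within either group and a difference of 0.22 (SE 0.07). The adjusted p was 0.902 in limma for all 8 genes.

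**Figure D3:**
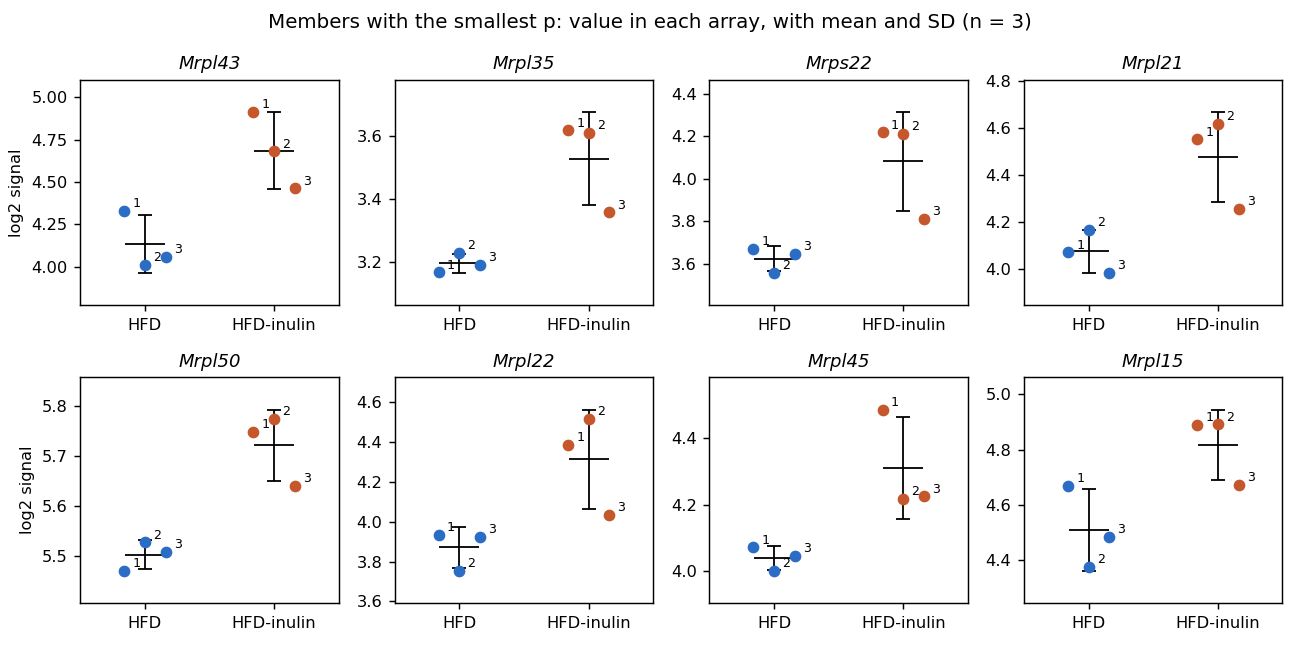
Log2 signal (y axis, a separate range for each gene) of the 8 genes with the smallest p in each HFD and HFD-inulin array (x axis). Points are arrays, numbered as in the labels, with the group mean as a horizontal bar and the SD as a vertical bar (n = 3). In each panel the 3 HFD-inulin points lie above the 3 HFD points, as in Mrpl43 with 4.46 to 4.91 against 4.01 to 4.33.

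Large subunit genes had a median difference of 0.19 (41 of 46 higher, 14 under p 0.05, 16 with groups apart), with 1 gene, Mrpl33, under the median signal of all probe sets. The shares were 30.4% under 0.05 and 34.8% apart, beside 3.42% and 5.41% of named genes with the higher mean. Mrpl3, next to the peptidyl transferase centre, measured 3.64, 3.58 and 3.62 in HFD-inulin and 3.59, 3.52 and 3.56 in HFD. The groups overlapped and the difference was 0.05 (SE 0.06, adjusted p = 0.931). Mrpl2, also of that region, differed by 0.13 (SE 0.08), with the highest HFD array between the HFD-inulin values. Mrpl1, of the mobile stalk by which spent tRNA leaves, differed by 0.06 (SE 0.09).

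The stalk that recruits translation factors is built on Mrpl11 and Mrpl10 and ends in copies of Mrpl12. The mean was higher in HFD-inulin for all 3, and 0 were under 0.05. Mrpl11 measured 4.35, 4.40 and 4.04 in HFD-inulin and 4.02, 3.98 and 4.07 in HFD, a difference of 0.24 (SE 0.10, unadjusted p = 0.0584). Arrays 1 and 2 were high and array 3 was within HFD. Mrpl10 differed by 0.13 (SE 0.12) and Mrpl12, which also binds the mitochondrial RNA polymerase, by 0.14 (SE 0.12).

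Of the 6 genes for proteins around the exit tunnel (Mrpl4, Mrpl22, Mrpl23, Mrpl24, Mrpl45 and Mrpl47), 5 had higher means, 3 were under 0.05 and 3 had groups apart, with differences from -0.04 to 0.44. Of the 8 genes of the central protuberance, where the subunits touch (Mrpl18, Mrpl27, Mrpl38, Mrpl40, Mrpl46, Mrpl48, Mrpl52 and Mrpl55), 7 had higher means, 3 were under 0.05 and 5 had groups apart, from -0.03 to 0.34. Among named genes, 3.42% were under 0.05 and 5.41% had groups apart, both with the higher mean. These structural groups were drawn up after the values had been seen. Mrpl41 differed by 0.19 (SE 0.14) and Mrpl57 by 0.09 (SE 0.09), and their groups overlapped.

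Small subunit genes had a median difference of 0.14 (27 of 28 higher, 5 under p 0.05, 3 with groups apart). The shares were 17.9% under 0.05 and 10.7% apart, beside 3.42% and 5.41% of named genes with the higher mean. The difference between the subunits was not tested, and in the high arrays their medians were 0.061 (Mrpl) and 0.062 (Mrps). Mrps12, at the decoding centre, measured 5.31, 5.44 and 5.14 in HFD-inulin and 5.16, 5.05 and 5.11 in HFD. Array 3 lay within HFD, and the difference was 0.19 (SE 0.09, adjusted p = 0.902). Mrps7, which nucleates the head of the subunit, measured 5.38, 5.46 and 5.11 against 5.12, 4.97 and 5.07, a difference of 0.26 (SE 0.10, unadjusted p = 0.0426). HFD-inulin array 3 was just under HFD array 1. Mrps2 differed by 0.13 (SE 0.09), Mrps5, near the entry of the messenger RNA, by 0.10 (SE 0.07), and Mrps16 by 0.04 (SE 0.12).

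Mrps27, an RNA-binding pentatricopeptide repeat protein, measured 4.38, 4.36 and 3.86 in HFD-inulin and 3.89, 3.86 and 4.06 in HFD. Arrays 1 and 2 stood above HFD and array 3 was at its low end. The difference was 0.26 (SE 0.15), with 0.48 in the low and -0.10 in the high arrays. Mrps28 measured 4.22, 4.21 and 3.58 against 3.70, 3.42 and 3.51, a difference of 0.46 (SE 0.18), again with array 3 within HFD. With Mrps18b and Mrpl42 it had the widest spread over the 6 arrays. Mrpl42 measured 6.37, 6.34 and 5.68 in HFD-inulin and 5.77, 5.53 and 5.75 in HFD, a difference of 0.45 (SE 0.19).

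The 3 Mrps18 paralogues sit at different places and had different values. Mrps18c, the form with the bacterial counterpart's place in the small subunit, measured 3.48, 3.54 and 3.47 in HFD-inulin and 3.44, 3.36 and 3.36 in HFD. The groups stood apart by a narrow margin, with a difference of 0.11 (SE 0.06, adjusted p = 0.902). Mrps18b, at a mitochondria-specific place of the small subunit, measured 5.06, 5.40 and 4.55 against 4.57, 4.40 and 4.33. It had the largest difference of the 74 genes, 0.57 (SE 0.21), and array 3 fell short of HFD array 1. Mrps18a, which sits in the large subunit despite its name, differed by 0.04 (SE 0.08, adjusted p = 0.956), with overlapping groups. Differences between the paralogues were not tested.

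Names and places disagree for 3 genes. Mrps30 also sits in the large subunit, and differed by 0.23 (SE 0.11). Mrps36 is a component of the alpha-ketoglutarate dehydrogenase complex and not of the ribosome. It measured 2.46, 2.15 and 2.09 in HFD-inulin and 2.24, 2.08 and 2.16 in HFD, a difference of 0.08 (SE 0.11). Counted by place, the median was 0.19 over 48 large subunit genes and 0.14 over 25 small subunit genes, so the move of these 3 changed little.

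The 6 genes with the lower mean in HFD-inulin had small differences. Mrpl44, which carries a fold related to double-stranded RNA ribonucleases, measured 2.93, 2.88 and 3.02 in HFD-inulin and 3.08, 3.04 and 2.99 in HFD. It had the lowest difference of all, -0.10 (SE 0.07, adjusted p = 0.908), and array 3 again lay within HFD. Mrpl33 (-0.04), Mrpl23 (-0.04), Mrpl49 (-0.04), Mrpl40 (-0.03) and Mrps26 (-0.01) followed, each with overlapping groups. Each of these 5, though not Mrpl44, had the higher mean in HFD-inulin under at least 1 other setting, which is median centring of the arrays for Mrpl40 and Mrps26.

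Most genes had higher means in HFD-inulin both among proteins with bacterial counterparts and among those without. In the large subunit the median was 0.14 over 29 bacterial-type genes (27 higher, 8 under p 0.05) and 0.22 over 19 mitochondria-specific ones (16 higher, 6 under p 0.05). In the small subunit it was 0.13 over 15 bacterial-type genes (15 higher, 3 under p 0.05) and 0.15 over 10 mitochondria-specific ones (9 higher, 2 under p 0.05). Among named genes, 3.42% were under 0.05 with the higher mean. In each of these 4 classes the mean deviation was at least 0.21 in HFD-inulin arrays 1 and 2 and at most 0.05 in array 3. The differences between the classes were not tested.

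**Figure D4:**
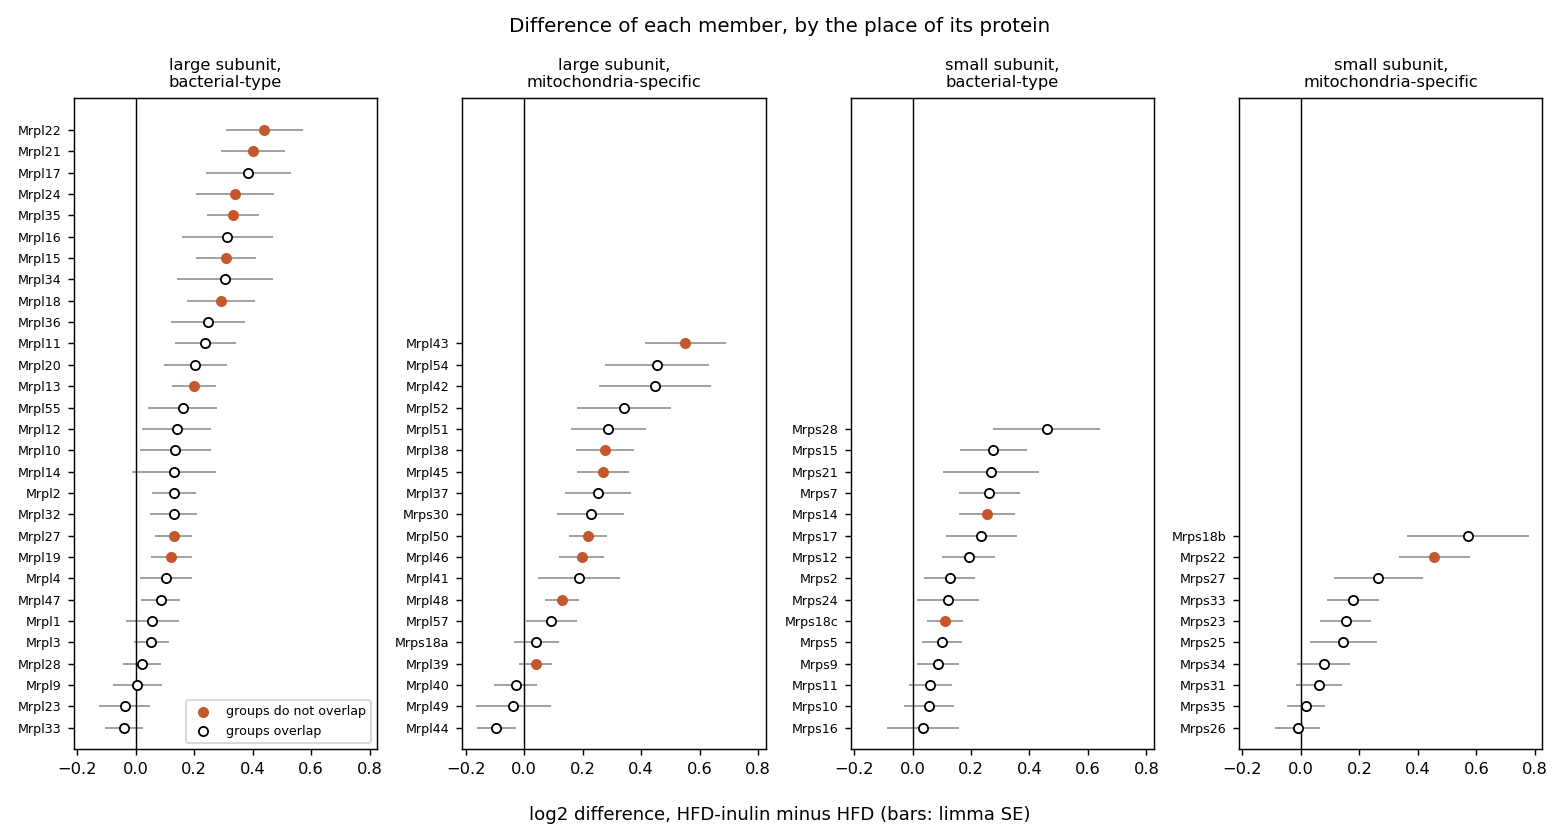
Log2 difference, HFD-inulin minus HFD (x axis), of 73 genes (y axis), in 4 panels by the protein's place and its bacterial ancestry, with Mrps36 left out because its protein is no ribosomal subunit. Points are limma estimates from 3 arrays per group and bars are their SE, and filled points mark the 19 genes whose groups do not overlap. Points run from -0.10 (Mrpl44) to 0.57 (Mrps18b), most of them right of 0 in every panel.

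Further mitoribosomal proteins carry other symbols, and 5 of them were measured under a single gene, while Aurkaip1 was not. The mean was higher in HFD-inulin for all 5 (median 0.25), and 4 were under an unadjusted p of 0.05, which 3.42% of named genes were with the higher mean. Ict1, a peptidyl-tRNA hydrolase that became part of the large subunit, measured 5.36, 5.36 and 5.11 in HFD-inulin and 4.95, 4.88 and 4.87 in HFD. Chchd1, of the small subunit, measured 3.30, 3.47 and 3.12 against 2.89, 2.83 and 2.996. Both had groups apart, with differences of 0.38 (SE 0.09) and 0.39 (SE 0.10) and a limma adjusted p of 0.902. Gadd45gip1 (0.25) and the pentatricopeptide repeat protein gene Ptcd3 (0.24) also had groups apart, while those of Dap3, a GTP-binding protein of the small subunit (0.12), overlapped. Of named genes, 5.41% had groups apart with the higher mean.

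Lists of genes that build and serve the mitochondrial ribosome had smaller median differences, though differences between lists were not tested. Of 29 genes for assembly and ribosomal RNA maturation, 20 had higher means, with a median of 0.08. Tfb1m, the methyltransferase of the small ribosomal RNA, differed by 0.42 (SE 0.17) and was the only one under p 0.05 (3.45% of the list, beside 3.42% of named genes with the higher mean). Malsu1, an assembly factor of the large subunit, differed by 0.20 (SE 0.09), and Mrm2, the methyltransferase of the large ribosomal RNA, by -0.16 (SE 0.07), each with groups apart. Of 16 translation factors 12 had higher means, with a median of 0.09 and 1 under p 0.05 (6.25%). That was Slirp, which with Lrpprc stabilises mitochondrial messengers, at 0.53 (SE 0.19). Mrrf, the ribosome recycling factor, differed by 0.30 (SE 0.15) and Lrpprc by 0.19 (SE 0.10).

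Of 19 mitochondrial aminoacyl-tRNA synthetases 13 had higher means, with a median of 0.05. Tars2, for threonine, was the only one under p 0.05 (0.40, SE 0.15), and Cars2 (0.36) and Yars2 (0.26) came next. Of 18 genes for mitochondrial transcription, replication and RNA processing 16 had higher means, with a median of 0.10. The helicase gene Twnk was the only one under p 0.05 (0.29, SE 0.11), followed by Pnpt1 (0.37) and Tfb2m (0.19). In HFD-inulin array 3 the mean deviation of these 4 lists lay between -0.05 and 0.00. The 1 gene under p 0.05 is 5.26% of the synthetase list and 5.56% of the transcription list, and no gene of these 4 lists passed limma's adjusted threshold.

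The organelle's own small ribosomal RNA, mt-Rnr1, had the lower mean in HFD-inulin. It measured 11.17, 11.02 and 11.16 in HFD-inulin and 11.21, 11.18 and 11.19 in HFD, a difference of -0.08 (SE 0.07, adjusted p = 0.920). The HFD-inulin arrays all lay below the HFD arrays, array 2 the farthest, as did those of 6.02% of all probe sets. Its signal was near the top of the range, where the highest mean of any probe set was 12.05. The list of the mitochondrial genome held 2 genes, and the other, mt-Tk, also had the lower mean. It differed by -0.48 (SE 0.39, limma adjusted p = 0.917) with overlapping groups, and by -0.23 in the low and -0.04 in the high arrays. The large ribosomal RNA shares its probe set with another gene and was not analysed here.

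Regulators of mitochondrial biogenesis had no shared direction, with 5 of 9 higher, a median of 0.01 and 1 under p 0.05. That was Ppara, a nuclear receptor of fatty acid use (-0.16, SE 0.07), with groups apart. Over all probe sets, 2.64% were under 0.05 and 6.02% had groups apart, both with the lower mean. The coactivator gene Ppargc1a measured 2.92, 2.63 and 3.67 in HFD-inulin and 3.64, 3.55 and 3.90 in HFD. Arrays 1 and 2 were low and array 3 was within HFD, with a difference of -0.62 (SE 0.26, unadjusted p = 0.0513). Ppargc1b, a related coactivator, differed by -0.27 (SE 0.12). The factor genes whose motif letters were searched differed by -0.03 (Nrf1, SE 0.06), 0.09 (Gabpa, SE 0.07) and 0.01 (Yy1, SE 0.07), each with overlapping groups.

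Cytosolic ribosomal protein genes and nuclear genes of the respiratory chain are the nearest groups to compare. Of 45 cytosolic ribosomal protein genes, 44 had higher means, 24 were under p 0.05 (53.3%) and 22 had groups apart (48.9%), with a median of 0.29. Of named genes, 3.42% were under p 0.05 with the higher mean and 5.41% had groups apart with the higher mean. In HFD-inulin their mean deviation was 0.31, 0.45 and 0.09 by array number. Of 85 respiratory chain genes, 71 had higher means, 6 were under p 0.05 (7.06%) and 7 had groups apart (8.24%), with a median of 0.12. Their mean deviation was 0.27, 0.09 and -0.01. Array 2 was thus the highest for the cytosolic list, array 1 for the respiratory list, and both were nearly level for the mitoribosomal genes (0.28 and 0.24), while array 3 was the lowest HFD-inulin array in all 3 lists. Differences between the lists were not tested.

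**Figure D5:**
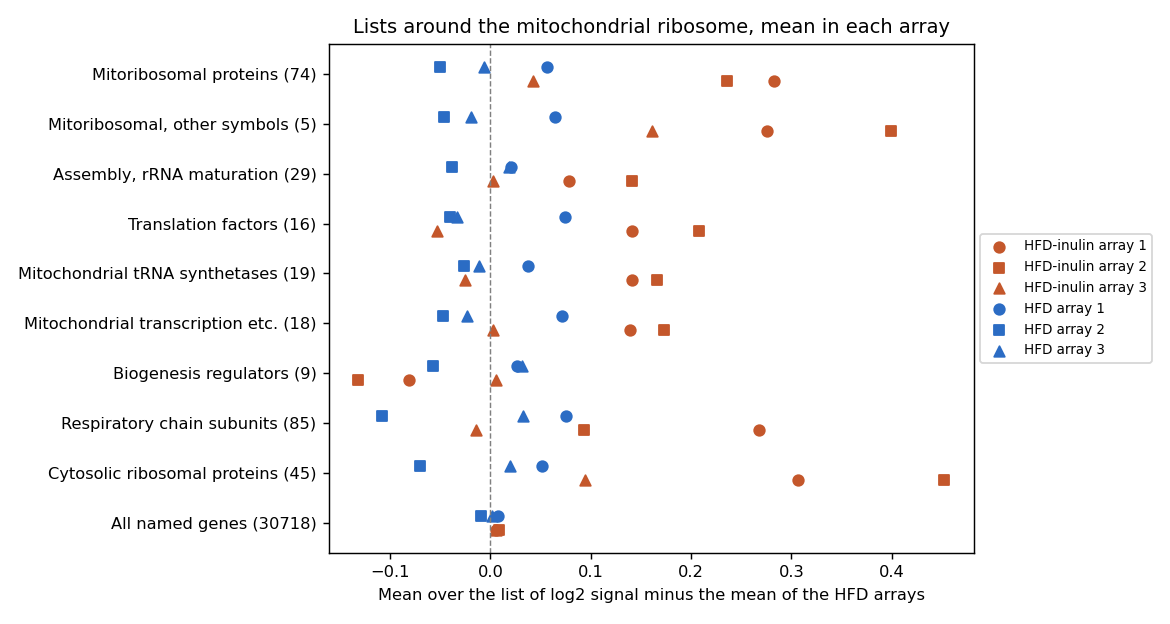
Mean over each list (y axis, number of genes in brackets) of the log2 signal minus the mean of the HFD arrays (x axis), with 1 point per array, HFD-inulin in orange and HFD in blue. For the 74 mitoribosomal genes HFD-inulin arrays 1 and 2 lie at 0.28 and 0.24 and array 3 at 0.04, among the HFD arrays at -0.05 to 0.06, and in all named genes every array lies near 0.

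Most genes next to the members on the chromosome differed little. A gene that is no member overlaps or lies within 500 bases in the RefSeq annotation for many of them, and 43 such neighbours had a probe set. The mean was higher in HFD-inulin for 26 of these, and the median difference was 0.02. An unadjusted p under 0.05 was reached by 4 of the 43, each with the higher mean, beside 3.42% of named genes in that direction: Twnk beside Mrpl43 (0.29 beside 0.55), Tcp1 beside Mrpl18 (0.32 beside 0.29), Psma2 beside Mrpl32 (0.44 beside 0.13) and Fau, which encodes a cytosolic ribosomal protein, beside Mrpl49 (0.41 beside -0.04). The adjacent pair Mrpl46 and Mrps11 differed by 0.20 and 0.06. Neighbours were looked up after the values had been seen.

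Marker sums of several cell types were at an extreme in HFD-inulin array 2. All 7 hepatocyte markers were measured, and their summed log2 signal was 71.7 to 73.1 in HFD-inulin and 73.0 to 74.2 in HFD, lowest in HFD-inulin array 1. The 5 neutrophil markers summed to 5.31, 8.95 and 5.32 in HFD-inulin and to 4.68 to 5.51 in HFD. S100a8, Ngp and Retnlg among them were under the median signal of all probe sets. The 4 cholangiocyte markers summed to 8.70, 10.5 and 8.57 against 8.30 to 8.98, again highest in HFD-inulin array 2. Array 2 had the lowest sum for the 4 stellate cell markers (17.7, against 18.3 to 19.2 in the other arrays), the 4 lymphocyte markers measured (5.08, against 5.54 to 6.05), the red cell marker Alas2 (5.57, against 5.82 to 6.02) and the 5 Kupffer cell markers (25.2, against 25.4 to 26.6). The Kupffer cell sum was 25.2 to 25.8 in HFD-inulin and 25.4 to 26.6 in HFD. The 4 endothelium markers summed to 19.31, 19.49 and 19.7 in HFD-inulin and to 19.58 to 20.14 in HFD, lowest in HFD-inulin array 1. The 4 pancreas markers summed to 8.187 to 8.337 in HFD-inulin and to 7.997 to 8.362 in HFD. Array 2 was thus at no extreme for the hepatocyte, endothelium and pancreas markers. Without array 2, 68 of the 74 genes had the higher mean in HFD-inulin, the median difference was 0.13 and 8 genes were under 0.05 (3.92% of all probe sets). Without array 1, 62 had the higher mean, the median difference was 0.13 and 7 were under 0.05 (3.98%). The part of any of these cell types in the result was not tested.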

How the data were processed

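The values are the authors' deposited log2 signals of 65956 probe sets in 6 liver arrays. The submitters' processing notes name Affymetrix Expression Console 1.0. Its algorithm, the background correction, the build and any filter were not given in the sources used here. That the scale is log2 follows from the range of the values, and without detection calls a low signal has no stated limit. With 3 arrays in each group, precision is limited by their number.

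Probe sets were named through GEO's platform annotation: 31280 carry 1 gene, 1470 several and 33206 none listed. Groups were compared with limma 3.58.1 (lmFit, eBayes; R 4.3.3), two-sided, over all probe sets with Benjamini-Hochberg adjustment and a threshold of 0.05, with no filter or covariate. Tested on simulated data with 50 probe sets planted per size among 65956, this fit recovered 19 at a 1.5-fold change, 44 at a log2 change of 1 and 49 at 2 for HFD-inulin against HFD. The members, gene lists and array parts were chosen with earlier results of these data known. Named are the 8 members with the smallest p in each direction (6 were lower), members set for their role, the 3 with the highest SD over the arrays, and the 3 smallest p of each pathway list. Promoters are RefSeq's. The labels do not say that replicate numbers pair the samples, and no pairing was assumed. Deviations of same-numbered arrays from their group means correlated at 0.26, -0.28 and 0.40. With 3 arrays per group these values cannot settle whether the numbers pair the samples. Alternatives were median centring or quantile normalization, array weights, a trended and robust prior, dim probe sets left out, the replicate number or the array part as a block, each array left out, each array part alone, other thresholds, and subunits by place.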

Additional observations from a re-analysis of the deposited data

How the results depend on the processing

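With 3 arrays per group, no scanner files and no detection calls, batches of slide or scan were not tested. Every member difference lies under a 1.5-fold change, of which the simulated test recovered 19 of 50. Its noise was independent between probe sets, without the array parts, and the planted probe sets were drawn from the whole array. The recovery therefore need not hold for these genes. The median difference of the 74 genes stayed positive under every alternative run, between 0.06 and 0.23. The count of probe sets called was 0 under all of them except a trended and robust prior, which called 4. Genes under an unadjusted p of 0.05 numbered 19, and 13 to 20 with another prior, without dim probe sets, after quantile normalization or median centring, or with the array parts as a block. In these fits 4.66% to 5.68% of all probe sets were under 0.05. Genes under it numbered 30 with array weights (7.46% of all probe sets), 6 to 36 with an array left out (3.18% to 9.89%), 4 at a threshold of 0.01 (0.684%) and 33 at 0.1 (10.9%). HFD-inulin has 1 array in the high part, as HFD has in the low part, so for each part alone only differences are given. In the high arrays the median was 0.062 for all 74 genes, 0.061 for Mrpl genes and 0.062 for Mrps genes. In the low arrays it was 0.15 for Mrpl genes and 0.10 for Mrps genes.

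With the replicate number as a block, 17 genes were under 0.05 (5.08% of all probe sets) and 0 probe sets were called. Whether the numbers pair the samples is not known. By their deviations, HFD-inulin arrays 2 and 3 correlated best with HFD arrays of other numbers.

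Of 539 single-gene values under other settings, 510 kept direction and side of the threshold and 29, in 13 of 36 genes, changed sign. With each array left out in turn, differences ranged from -0.061 to 0.025 for Mrpl40, -0.081 to 0.037 for Mrpl23, -0.16 to 0.074 for Mrpl49, -0.046 to 0.047 for Mrps26, -0.027 to 0.11 for Mrpl1, -0.035 to 0.15 for Mrps36, -0.010 to 0.078 for Mrps18a and -0.083 to 0.15 for Mrps16. Median centring gave 0.0026 for Mrpl40 and 0.022 for Mrps26, array weights 0.031 for Mrpl49 and 0.0080 for Mrps26, and the array parts as a block -0.031 for Mrps16. The low arrays gave 0.010 for Mrpl33, 0.0046 for Mrps26 and -0.17 for Mrps16. The high arrays gave 0.033 for Mrpl23 and Mrpl40, 0.00055 for Mrpl49, -0.036 for Mrpl4, -0.055 for Mrpl10, -0.021 for Mrpl57, -0.025 for Mrps36 and -0.099 for Mrps27. The cause of these changes was not tested.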
